A study of Mus musculus with 4 samples.

Results

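The laminin and integrin gene families were followed through the cell types of the mouse dorsal root ganglion (DRG), the ganglion beside the spinal cord that holds the cell bodies of sensory neurons. Members were every gene listed in the count matrices whose whole symbol follows the naming of a laminin α, β or γ chain (Lama, Lamb, Lamc) or of an integrin α or β subunit (Itga, Itgb), which gave 38 of 33456 genes. They comprise 11 laminin genes and 27 integrin genes (18 α and 9 β subunits, counting the β2-like gene Itgb2l). The study compared 2 libraries of naïve control ganglia with 2 libraries of ganglia taken 3 days after a crush of the sciatic nerve, in C57BL/6 mice of 8 to 12 weeks with no transgene named. Whole ganglia were dissociated with papain and collagenase, living cells were sorted, and 10x Genomics 3′ single-cell libraries were sequenced, in which a unique molecular identifier (UMI) stands for 1 captured RNA molecule. The labels name the L4 ganglion, and the paper names L4 and L5 for naïve and injured mice alike. Cells of several mice were pooled, and the spread between single mice cannot be seen, so the p-values below measure the spread between libraries.

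Laminins are trimers of an α, a β and a γ chain that form the backbone of basement membranes, the sheets of matrix around Schwann cell units, blood vessels and muscle cells. Integrins are heterodimers of an α and a β subunit that span the plasma membrane and tie such matrix, or counter-receptors on other cells, to the cytoskeleton. The pairing decides the ligand. α3, α6 and α7 with β1, and α6 with β4, bind laminins, α1, α2, α10 and α11 with β1 bind collagens, αV with several β subunits, and α5 and α8 with β1, bind proteins that carry an RGD motif, and the β2 and β7 subunits work in leukocytes. In the DRG each neuron soma is wrapped by satellite glial cells (SGC), and its axon by Schwann cells.

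Promoter windows of a few members whose levels differed between cell types are shown because the results below turn on these genes. They are RefSeq sequences on GRCm38.p6, each running from 250 bases before to 50 bases after a start of the gene in RefSeq, and 24 of the 38 members had at least 1 such window (27 windows). Itgb8 (chr12:119238227-119238526, minus strand) was high in glia, and Lamb1 (chr12:31265043-31265342, plus strand) in glia and connective tissue cells. Itgam (chr7:128062390-128062689, plus strand) was high in neutrophils and macrophages, and Itgax (chr7:128129300-128129599, plus strand) in dendritic cells. Itgb7 (chr15:102231886-102232185, minus strand) was high in dendritic cells and monocytes, and in T cells of 1 control library. Itgb2l (chr16:96443565-96443864, minus strand) was high in neutrophils. The RefSeq start of Itgb8 lies inside the span that GENCODE gives this gene, so its window does not reach the GENCODE start, which the windows of the other genes shown include. Capitals mark matches, on either strand, of GAGGAA, a core bound by ETS factors such as PU.1, or of ACAAAG, a core bound by SOX factors.
Itgb8: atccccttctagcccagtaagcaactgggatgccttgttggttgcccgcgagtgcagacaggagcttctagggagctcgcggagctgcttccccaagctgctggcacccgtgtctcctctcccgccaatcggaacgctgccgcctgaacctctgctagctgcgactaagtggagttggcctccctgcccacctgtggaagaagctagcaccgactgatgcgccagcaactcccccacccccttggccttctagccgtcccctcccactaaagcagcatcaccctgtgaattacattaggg
Lamb1: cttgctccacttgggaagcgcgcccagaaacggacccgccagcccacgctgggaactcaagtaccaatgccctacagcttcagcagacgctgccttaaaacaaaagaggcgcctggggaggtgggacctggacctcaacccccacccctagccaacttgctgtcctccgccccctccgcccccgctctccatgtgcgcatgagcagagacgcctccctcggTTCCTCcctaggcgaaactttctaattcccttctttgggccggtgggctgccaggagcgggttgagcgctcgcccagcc
Itgam: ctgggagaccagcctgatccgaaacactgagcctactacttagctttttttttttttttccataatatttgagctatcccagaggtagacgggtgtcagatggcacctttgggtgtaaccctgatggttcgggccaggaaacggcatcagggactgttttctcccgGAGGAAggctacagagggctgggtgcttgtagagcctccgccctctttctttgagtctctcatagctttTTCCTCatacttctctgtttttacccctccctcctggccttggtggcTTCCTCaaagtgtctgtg
Itgax: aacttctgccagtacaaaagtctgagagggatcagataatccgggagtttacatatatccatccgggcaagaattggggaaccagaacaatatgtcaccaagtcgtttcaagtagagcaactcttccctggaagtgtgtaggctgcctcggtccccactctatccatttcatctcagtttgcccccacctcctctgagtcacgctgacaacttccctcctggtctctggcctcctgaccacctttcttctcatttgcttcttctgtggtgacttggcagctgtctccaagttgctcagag
Itgb7: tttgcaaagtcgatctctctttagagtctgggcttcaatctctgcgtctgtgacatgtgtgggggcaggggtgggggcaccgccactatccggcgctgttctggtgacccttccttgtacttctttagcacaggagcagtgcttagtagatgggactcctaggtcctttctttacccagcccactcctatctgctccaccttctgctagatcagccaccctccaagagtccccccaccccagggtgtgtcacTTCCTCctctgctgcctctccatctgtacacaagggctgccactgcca
Itgb2l: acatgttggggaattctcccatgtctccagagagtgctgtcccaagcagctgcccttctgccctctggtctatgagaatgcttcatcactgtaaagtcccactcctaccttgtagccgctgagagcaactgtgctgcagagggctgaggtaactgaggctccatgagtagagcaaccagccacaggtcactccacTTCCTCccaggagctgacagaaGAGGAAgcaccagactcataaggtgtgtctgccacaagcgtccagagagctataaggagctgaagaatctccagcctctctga
GAGGAA was found 3 times in the Itgam window, 2 times in that of Itgb2l and 1 time each in those of Itgb7 and Lamb1, and not in those of Itgax and Itgb8. It occurred in 28.3% of the 32851 windows in the table and in 15 of the 27 windows of members. ACAAAG was in none of the 6 windows shown, in 18.7% of all windows and in 2 of the 27. A match is a run of letters and not a shown binding site.

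The 4 libraries held 1384, 1788, 2509 and 1294 barcodes with 5585909, 11210875, 11163177 and 9477167 UMIs, in the order control 1, control 2, injury 1, injury 2, and all values of 4 libraries below follow this order. The limits given in the methods for UMIs, genes and mitochondrial share, applied to the deposited matrices, left 6095 of 6975 barcodes. The study states a larger number of analysed cells, so the cell set here is not identical to its own. Of the 6095, 5074 were assigned to 1 of 17 types when at least 3 of 8 to 10 marker genes of the type had a UMI and led every other list by at least 2, and 1021 (16.8%) were not assigned. No laminin, integrin or partner gene was a marker. SGC gave 74, 439, 654 and 273 cells and Schwann cells 107, 35, 93 and 22, so libraries numbered 1 and 2 differed in makeup. Dendritic cells and nonmyelinating glia were the least certain types, with 73.8% and 67.4% of their cells at the limit of the gate, smooth muscle cells also held a median of 3 pericyte markers, perineurial cells 3 of connective tissue, neurons 3 of nonmyelinating glia and neutrophils 4 of monocytes. Perineurial cells, neurons and erythroid cells reached 10 cells only in the libraries numbered 2, nonmyelinating glia only in those numbered 1, and T and B cells only in control 1. In those 2 libraries nonmyelinating glia held at most 17 UMIs of any member (Itgb8), so their means and SDs are imprecise. In all, 20 barcode sequences occurred in more than 1 library. Levels are counts per 1000000 UMIs of the summed cells of a type in a library (CPM). They compare a gene between types, and differences between genes are not read, since capture at the 3′ end differs by gene.

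**Figure D1:**
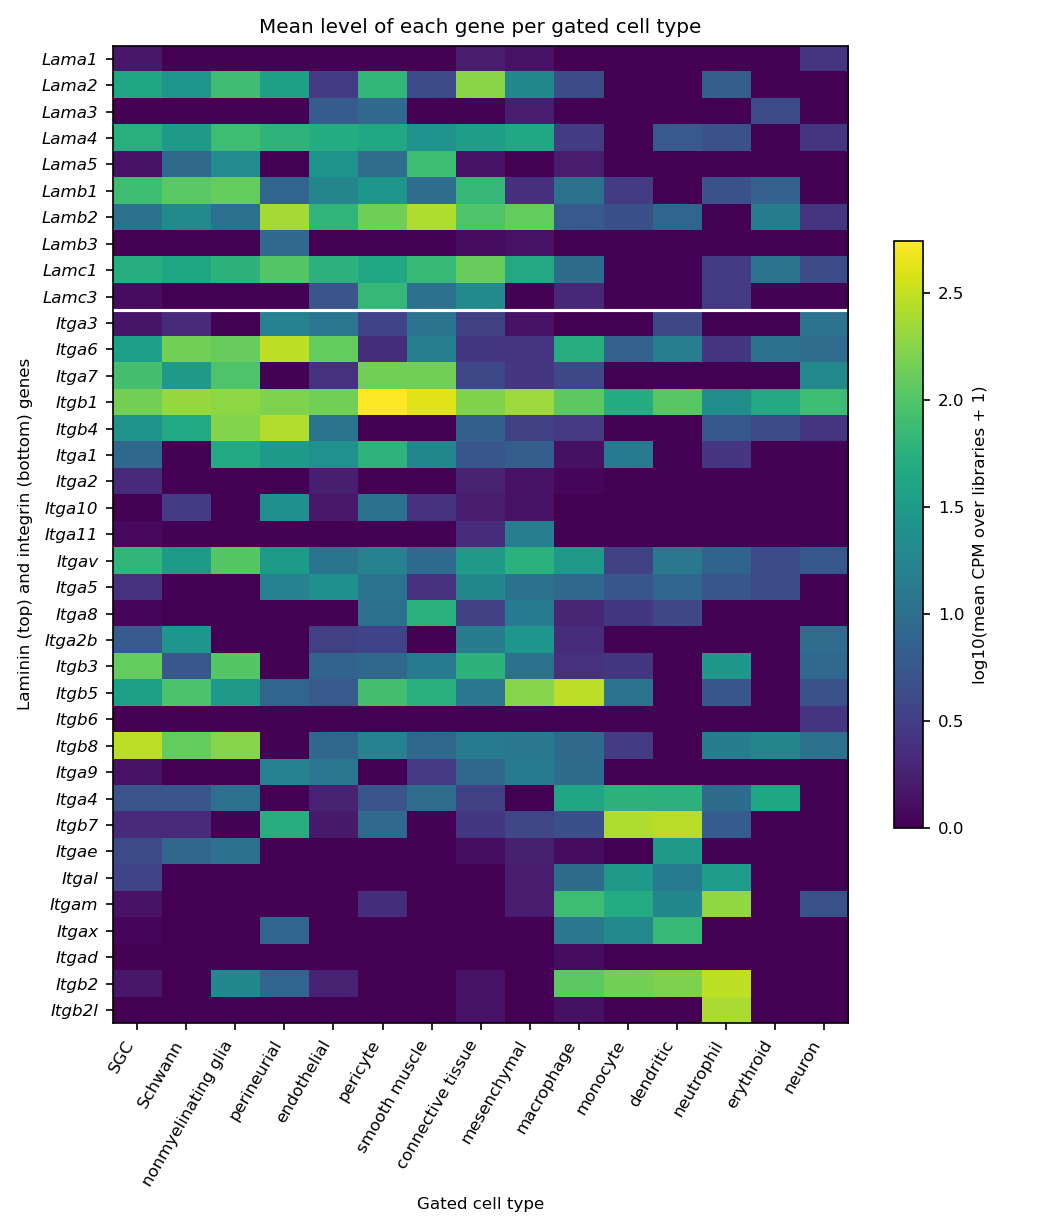
Mean level of 37 of the 38 members in 15 gated types, as log10 of the mean CPM over libraries plus 1, with laminin genes above the white line and integrin genes below it. Bright cells mark Lama2 in connective tissue, Itgb8 in SGC, Itgb1 in pericytes and the leukocyte integrins in macrophages, monocytes, dendritic cells and neutrophils.

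Each type was then set against the mean of the other types by edgeR's quasi-likelihood test over all genes, with library as a block. A call needed a fold over 4 and an adjusted p under 0.05. That mean is of log2 levels, so types with almost no UMIs of a gene lower it. A call is therefore not a 4-fold excess over the mean CPM of the other types. The filter on low counts kept 22 of the 38 members. A member kept through the type where it is high had to differ somewhere, so the counts and adjusted p by type below are descriptions. The number of members called was 8 in SGC, where 11.1% of all genes were called, 8 in Schwann cells (10.4% of genes), 9 in nonmyelinating glia (5.35%), 7 in perineurial cells (7.18%) and 0 in neurons (12.7%). It was 5 in endothelial cells (11.5%), 7 in pericytes (11.3%), 6 in smooth muscle cells (10.3%), 6 in connective tissue cells (12.2%) and 2 in mesenchymal cells (10.3%). Among blood-derived cells it was 6 in macrophages (12.8%), 5 in monocytes (9.26%), 5 in dendritic cells (8.13%), 4 in neutrophils (9.74%) and 1 in erythroid cells (6.59%). Itgb1, the β subunit shared by most matrix-binding integrins, was the 1 tested member called in no type. The neurons in this test were 35 cells of control 2 and 12 of injury 2, within the upper limits on UMIs and genes. Without those limits 249 barcodes passed the neuron gate, against 53 with them.

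The laminin α chains set the types apart. Lama2, the α2 chain of the laminin of nerve and muscle basement membranes, was highest in connective tissue cells at 189, 189, 159 and 171 CPM, a mean of 177 ± 14.5 CPM (SD, n = 4 libraries) with an adjusted p of 1.73e-30 against the other types. All 4 libraries lay above both libraries of nonmyelinating glia, the next type at 77.8 ± 59.3 CPM on 5 UMIs. Lama2 was also called in pericytes (64.5 ± 7.31 CPM, n = 3), SGC (39.8 ± 8.29 CPM, n = 4), Schwann cells (26.5 ± 3.57 CPM, n = 4), nonmyelinating glia and perineurial cells (35.3 ± 28.3 CPM, n = 2). The perineurial call was lost under 6 of 9 alternatives, the Schwann call under 4 of 11 and the call in nonmyelinating glia under 3 of 8.

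Lama4, the α4 chain found in vessel and nerve basement membranes, was spread widely. It stood at 53.5, 52.2, 48.4 and 49.3 CPM in SGC and 36.2, 60.9, 39.1 and 60.1 CPM in endothelial cells, and was called in both (adjusted p = 6e-10 and 1.11e-08). The highest mean, 75.8 ± 5.72 CPM in 2 libraries of nonmyelinating glia, rested on 6 UMIs. Its libraries overlapped those of perineurial cells, at 59.0 ± 24.7 CPM on 8 UMIs. The endothelial call was lost in 3 of 11 alternatives (DESeq2, without control 2 and without injury 2) and the SGC call in 1 (without control 2).

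Lama5, the α5 chain of mature vessel walls, was highest in smooth muscle cells at 71.0, 85.8 and 71.8 CPM (control 1, control 2 and injury 1, the 3 libraries with at least 10 such cells). No library of endothelial cells, the next type at 27.1, 25.3, 21.7 and 20.6 CPM, reached them. Its adjusted p was 1.29e-11 in smooth muscle and 2.48e-09 in endothelial cells. It was also called in pericytes (adjusted p = 0.00877, lost under DESeq2 and without injury 1). A call in Schwann cells (adjusted p = 0.0283) was lost under DESeq2, without control 2 and without injury 2. In SGC it was near absent, with 3 UMIs in 1440 cells. The 2 other α chains were low throughout. Lama1 reached at most 1.56 CPM and Lama3 at most 7.58 CPM in any type, and neither passed the filter.

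Taken as shares of all laminin α UMIs, the chains divided the types in the same way. Lama2 made up 84.1% ± 2.46 in connective tissue cells (SD, n = 4), 43.2% ± 5.62 in SGC (n = 4) and 3.63% ± 3.17 in smooth muscle cells (n = 3). Lama5 made up 74.4% ± 6.91 in smooth muscle cells, 30.6% ± 7.63 in endothelial cells and 0.404% ± 0.467 in SGC.

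**Figure D2:**
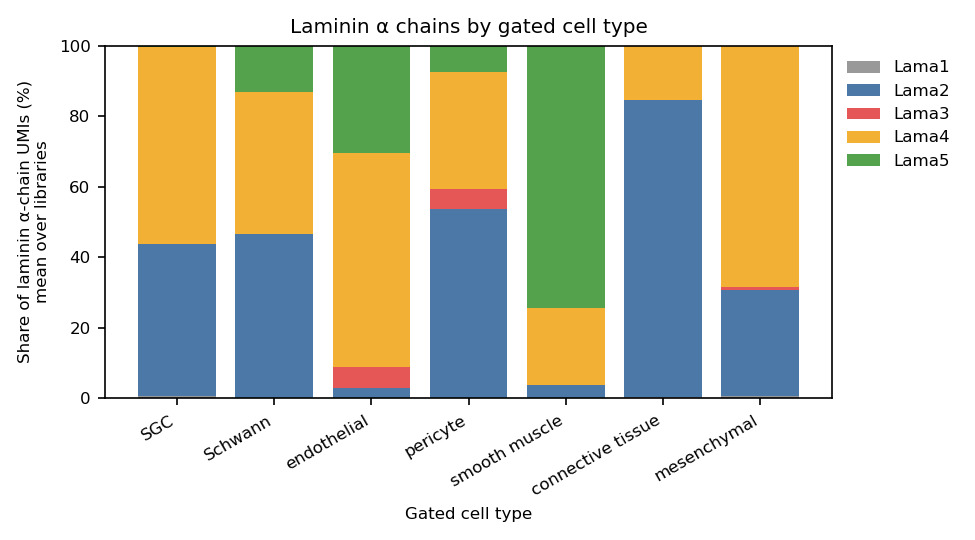
Share of laminin α-chain UMIs (percent, mean over libraries) taken by each of the 5 α chains in 7 gated types, as stacked bars. Lama5 takes 74.4% in smooth muscle cells and 30.6% in endothelial cells, Lama2 takes 84.1% in connective tissue cells, and SGC carry Lama2 and Lama4 with Lama5 at 0.404%.

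The β chains split glia from the vessel wall. Lamb1, the β1 chain, was called in SGC at 102, 62.2, 92.3 and 52.8 CPM (adjusted p = 1.02e-13) and in Schwann cells at 189, 43.9, 142 and 64.1 CPM (adjusted p = 1.96e-12). In both of these glial types the libraries numbered 1 were higher than those numbered 2. It was also called in nonmyelinating glia (123 ± 4.10 CPM, n = 2, on 10 UMIs) and in connective tissue cells (65.4 ± 13.1 CPM, n = 4). Lamb2, the β2 chain, was called in smooth muscle at 262, 343 and 166 CPM (n = 3), perineurial cells at 260.0 and 208 CPM (n = 2), pericytes (135 ± 21.2 CPM, n = 3), mesenchymal cells (123 ± 15.5 CPM, n = 4) and connective tissue cells (96.9 ± 27.7 CPM, n = 4), with adjusted p between 1.66e-17 and 5.5e-09. In SGC it was 9.68 ± 1.96 CPM. Lamb1 held 88.1% ± 4.82 of laminin β UMIs in SGC and 80.3% ± 21.8 in Schwann cells, against 21.5% ± 3.14 in endothelial cells, 16.8% ± 3.88 in pericytes, 2.52% ± 3.03 in smooth muscle and 1.11% ± 1.28 in mesenchymal cells. Every library of SGC lay above every library of those 4 types in this share. Lamb3, a chain of epithelial laminin, had at most 7.65 CPM and was not tested.

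Among γ chains, Lamc1, the γ1 chain of most laminins, was called in connective tissue cells (127 ± 29.3 CPM (SD, n = 4 libraries)), perineurial cells (101 ± 13.4 CPM, n = 2), smooth muscle (71.9 ± 30.6 CPM, n = 3) and endothelial cells (56.6 ± 11.9 CPM, n = 4), and stood at 50.4 ± 8.63 CPM in SGC without a call. The endothelial call of Lamc1 was lost in 4 of 11 alternatives (DESeq2, RLE scaling, the stricter gate and without control 2), and that in smooth muscle under DESeq2. Lamc3, the γ3 chain, was highest in pericytes at 107, 22.8 and 69.1 CPM in 3 libraries (adjusted p = 9.8e-12), and the libraries of pericytes and of connective tissue cells (22.1, 27.2, 16.6 and 10.2 CPM) overlapped. It was also called in connective tissue cells and in smooth muscle cells (adjusted p = 0.00403), and both of these calls were lost under DESeq2.

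Among laminin-binding subunits, Itga6 (α6) was highest in perineurial cells at 321 and 277 CPM in their 2 libraries, above all Schwann cell libraries at 135, 169, 127 and 144 CPM. Endothelial cells followed at 104, 137, 104 and 148 CPM, overlapping with Schwann cells, and adjusted p was 1.17e-12, 2.02e-17 and 2.39e-20 in this order. Macrophages, at 50.5 ± 14.1 CPM (n = 4), and nonmyelinating glia, at 127 ± 103 CPM (n = 2), were called too. Itgb4 (β4), which pairs with α6 alone, stood at 291 and 235 CPM in perineurial cells and 67.3, 43.9, 28.3 and 48.1 CPM in Schwann cells (adjusted p = 4e-14 and 1.92e-08), and at 10.3 ± 5.26 CPM in endothelial cells. SGC (23.9 ± 13.3 CPM, n = 4) and nonmyelinating glia (171 ± 39.7 CPM, n = 2) were called for Itgb4 as well, the SGC call not under DESeq2.

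Itga7 (α7), best known as the laminin receptor of muscle, was highest in smooth muscle cells and pericytes, at 144 ± 34.8 CPM and 143 ± 18.6 CPM (SD, n = 3 each), whose libraries overlapped. It was next in nonmyelinating glia (95.7 ± 33.9 CPM, n = 2, on 7 UMIs) and in SGC at 117, 87.6, 56.6 and 74.0 CPM (adjusted p = 7.97e-20), then in Schwann cells. Macrophages held 2.92 ± 3.56 CPM. Itga3 (α3) had a mean of at most 15.3 CPM, in perineurial cells, and was not tested. Itgb1 was measured in all 15 types, from 21.5 ± 10.9 CPM in neutrophils to 555, 637 and 457 CPM in the 3 pericyte libraries, each above the 3 smooth muscle libraries at 430.3, 365 and 403 CPM.

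Of the collagen receptors, Itga1 (α1) was highest in pericytes at 76.4, 45.5 and 57.6 CPM (adjusted p = 2.61e-09). Its calls in endothelial cells (23.2 ± 8.93 CPM, n = 4), nonmyelinating glia and perineurial cells were each lost under 2 or more alternatives. Itga11 (α11), the collagen receptor of mesenchymal cells, had 24 of its UMIs in mesenchymal cells at 10.1, 20.5, 17.3 and 7.17 CPM, above all libraries of every other type. Itga10 reached 22.9 CPM, from 3 UMIs, and Itga2 1.11 CPM, and these 3 genes did not pass the filter.

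Of the RGD-binding subunits, Itgb8 (β8), which pairs with αV and is known for activating latent TGF-β, marked glia. SGC held 267, 293, 285 and 325 CPM, a mean of 292 ± 24.1 CPM (SD, n = 4 libraries), and a UMI of Itgb8 was present in 64.4% of 1440 cells. The same share was 2.34% of macrophages. At 1000 UMIs per cell the 2 shares were 24.8% and 0.562%. Its call in SGC (adjusted p = 2.77e-24), Schwann cells (123 ± 15.97 CPM, n = 4) and nonmyelinating glia (174 ± 133.8 CPM, n = 2) held under every alternative that could be fitted, and outside glia no tested type passed 16.6 CPM. Its partner Itgav (αV) was called in nonmyelinating glia (103 ± 32.3 CPM, n = 2, on 9 UMIs) and SGC (58.3, 68.4, 60.3 and 66.5 CPM, adjusted p = 1.33e-13). The SGC value was just past the 4-fold limit and under it in 4 of 11 alternatives. Mesenchymal cells reached 55.0 ± 22.3 CPM (n = 4).

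Itgb5 (β5), another αV partner, was highest in macrophages at 193, 290.3, 355 and 333 CPM (adjusted p = 2.73e-28) and next in mesenchymal cells at 167, 196, 117 and 208 CPM (adjusted p = 1.57e-16). The lowest macrophage library lay below the 2 highest mesenchymal libraries. Schwann cells, pericytes (85.1 ± 32.4 CPM, n = 3) and smooth muscle cells (51.3 ± 47.3 CPM, n = 3) were also called, each not under every library left out. Itga8 (α8) was not tested but was higher in all 3 smooth muscle libraries (31.1, 42.9 and 93.9 CPM) than in those of mesenchymal cells (10.1, 14.6, 10.4 and 16.7 CPM). Itga5 (α5), the fibronectin receptor subunit, reached 22.8 ± 6.34 CPM in endothelial and 18.0 ± 2.82 CPM in connective tissue cells (SD, n = 4 each), which overlapped. Itga9 reached 15.3 CPM, Itgb6 had 1 UMI in the tested sums, in neurons, and Itga2b, the platelet αIIb, stood at 26.9 ± 15.8 CPM in Schwann cells and 26.4 ± 5.13 CPM in mesenchymal cells (n = 4 each).

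Itgb3 (β3), the vitronectin receptor subunit that pairs with αV, was called in SGC (adjusted p = 7.96e-21) and connective tissue cells (adjusted p = 7.11e-14). It was also called in nonmyelinating glia on 9 UMIs and in neutrophils on 11 UMIs, where the calls were lost with no library block. Its level followed the library number in both of the first types. SGC held 316, 31.1, 121 and 24.7 CPM, and connective tissue cells 121, 18.7, 70.3 and 21.8 CPM. In each type both libraries numbered 1 were above both numbered 2, in control and in injury alike. A test of the libraries numbered 2 against those numbered 1 with condition in the model, chosen after these values were seen, gave a log2 fold of -2.72 in SGC (SE 0.24, adjusted p = 2.54e-26), where 0.781% of genes were called at a 4-fold limit. In connective tissue cells it gave -2.24 (SE 0.31, adjusted p = 0.00180), with 0.362% of genes called. Itgb3 was the 1 member called in either type. Under the 4-fold limit but past an adjusted p of 0.05 were Itgb4 in SGC (log2 fold -1.31, adjusted p = 0.0253) and, in Schwann cells, Lamb1 (-1.57, adjusted p = 0.00814) and Itgb5 (1.37, adjusted p = 0.0250). What the number stands for is not given in the labels, and its part in these differences was not tested.

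**Figure D3:**
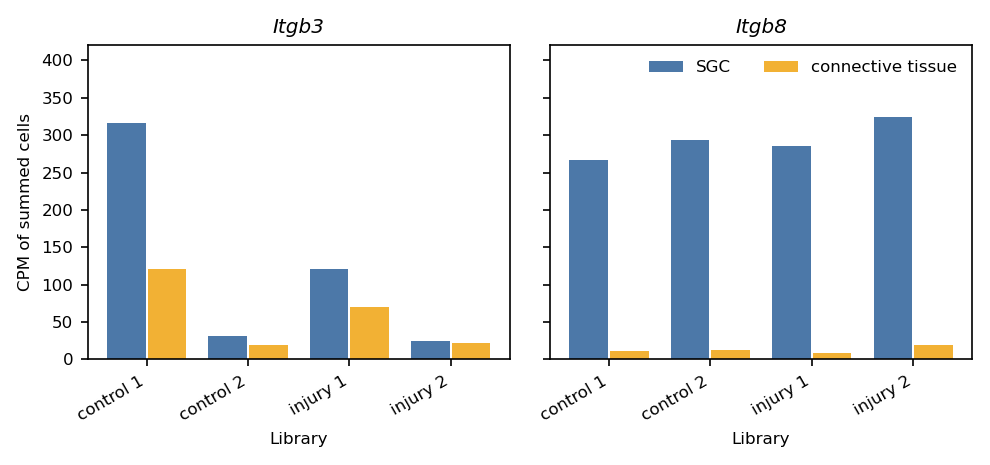
Level of Itgb3 (left) and Itgb8 (right) in SGC and connective tissue cells of each library, in CPM of the summed cells. Itgb3 is 316 and 120.7 CPM in SGC of the libraries numbered 1 and 31.1 and 24.7 CPM in those numbered 2, whereas Itgb8 in SGC stays between 267 and 325 CPM.

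The leukocyte integrins were confined to blood-derived types at the level of calls, except Itgb7 in perineurial cells. Itgb2 (β2), the subunit common to the leukocyte adhesion receptors, stood at 463, 235, 308 and 194 CPM in neutrophils, 106, 114, 135 and 91.3 CPM in macrophages, 188, 74.1, 226 and 92.7 CPM in monocytes and 193, 158 and 124 CPM in the 3 dendritic cell libraries. In SGC and Schwann cells together it had 3 UMIs. Itgam (αM), its partner in the complement receptor CR3, was highest in neutrophils at 299, 128, 199.9 and 155 CPM, each above every macrophage library at 57.5, 36.8, 120.4 and 91.3 CPM, and was called in monocytes (47.2 ± 33.0 CPM, n = 4) and dendritic cells (18.1 ± 17.0 CPM, n = 3, lost without control 1) too. Itgax (αX), a marker of dendritic cells, was highest there at 84.0, 86.0 and 41.3 CPM, with monocytes at 0, 18.5, 56.4 and 0 CPM and macrophages at 16.6, 8.18, 11.6 and 9.04 CPM, and its 3 calls were lost under DESeq2.

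Itgb2l, a β2-like gene, was found in neutrophils at 327, 149.8, 277 and 225 CPM, which is 109 UMIs against 1 each in connective tissue cells and macrophages. It passed the filter on low counts through neutrophils, so its adjusted p of 4.03e-23 there describes the level and adds no separate support. This call was also lost under DESeq2, in a gene with no UMI in most other types. Itgb7 (β7), the gut-homing and E-cadherin receptor subunit, was highest in dendritic cells (336, 373 and 124 CPM) and monocytes (246, 259, 404 and 118 CPM), which overlapped (adjusted p = 1.79e-17 and 8.87e-20). Its perineurial call rested on 7 UMIs. Itga4 (α4), its partner and that of β1, was called in monocytes (58.1 ± 39.4 CPM, n = 4), dendritic cells (57.3 ± 15.3 CPM, n = 3), macrophages (37.0, 57.2, 28.1 and 38.0 CPM) and erythroid cells, where control 2 had 0 and injury 2 had 82.0 CPM. Itgal (αL) reached 31.5 ± 10.6 CPM in neutrophils and 28.6 ± 10.99 CPM in monocytes (n = 4 each), Itgae (αE) 29.6 ± 11.8 CPM in dendritic cells (n = 3), and Itgad 1 UMI in macrophages, and none of these 3 was tested. The 61 T cells of control 1, which had no second library, held Itgb1 at 456, Itgb2 at 309, Itgb7 at 274, Itga4 at 137 and Itgal at 55.8 CPM.

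The contrast of SGC with Schwann cells asks how far these 2 glial types differ in these families. The Schwann gate used genes such as Mag and Prx, which myelinating cells express. Nonmyelinating glia were gated apart and are not in the contrast. Of the tested members, 2 were higher in SGC by 4-fold or more, against 4.94% of all genes, and 2 were higher in Schwann cells, against 3.99%. Itgb3 was higher in SGC (log2 fold 4.40, SE 0.51, adjusted p = 1.05e-10), with 460 UMIs in SGC and 4 in Schwann cells, all 4 in control 1. Itga1 was the other (log2 fold 4.70, SE 1.49, adjusted p = 0.0144), at 9.72, 5.26, 8.21 and 6.85 CPM in SGC and 0 UMIs in Schwann cells. That fold rests on the 0 UMIs, and the call was lost with the looser gate. Set against a floor of 3 UMIs over all Schwann cells, the pooled Itga1 level in SGC, from 43 UMIs, was 1.66-fold higher. This ratio leaves out the counting error of the SGC UMIs. In 2 libraries of nonmyelinating glia Itgb3 stood at 103 ± 32.3 CPM and Itga1 at 46.8 ± 9.82 CPM, on 9 and 4 UMIs. Neither gene was therefore low in all glia outside SGC.

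Itga6 was higher in Schwann cells, where its lowest library (127 CPM) was above the highest SGC library (40.2 CPM, log2 fold -2.09, SE 0.26, adjusted p = 4.66e-10). The fold of Itga6 lay under 4 in 4 of 11 alternatives, always with the same direction. Lama5 was also higher in Schwann cells (log2 fold -3.16, SE 1.03, adjusted p = 0.0182), but on 5 UMIs, and this call was lost without control 2 or injury 2. Under the 4-fold limit, 3 members were higher in SGC past an adjusted p of 0.05. These were Itga7 (log2 fold 1.30, SE 0.34, adjusted p = 0.00229), Itgb8 (log2 fold 1.17, SE 0.27, adjusted p = 0.000626) and Itgav (log2 fold 1.06, SE 0.33, adjusted p = 0.0115). For all 3 every SGC library was above every Schwann library, which adds no separate support, since the same contrast picked them. Itgb1 (log2 fold -0.58, SE 0.18, adjusted p = 0.0135), Itgb4 (log2 fold -1.11, SE 0.42, adjusted p = 0.0471) and Itgb5 (log2 fold -1.33, SE 0.32, adjusted p = 0.00119) were higher in Schwann cells. Of the laminin chains, Lama2 had log2 fold 0.58, SE 0.35, adjusted p = 0.279, Lama4 log2 fold 0.62, SE 0.37, adjusted p = 0.265, Lamb1 log2 fold -0.58, SE 0.29, adjusted p = 0.166 and Lamc1 log2 fold 0.29, SE 0.33, adjusted p = 0.621.

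**Figure D4:**
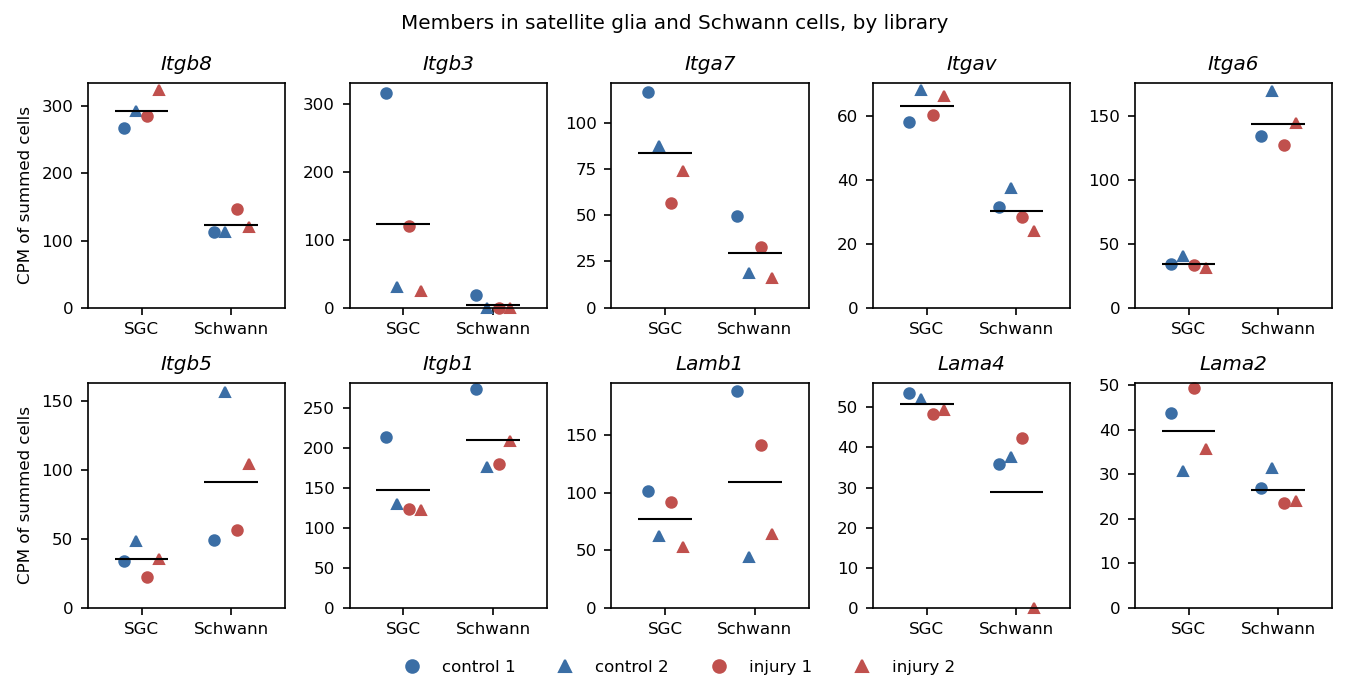
Levels of 10 members in SGC and Schwann cells, in CPM of the summed cells, with 1 point per library (circles numbered 1, triangles numbered 2, blue control, red injury) and a black line at the mean. Itgb8, Itga7 and Itgav are higher in SGC and Itga6 in Schwann cells in every library, and Itgb3 in SGC runs from 24.7 to 316 CPM.

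Genes that work with these families were grouped in 4 lists. In the SGC and Schwann contrast 4.94% of all genes were called higher in SGC and 3.99% in Schwann cells. In the SGC and Schwann contrast, 0 of 9 tested basement membrane partners, such as nidogens and collagen IV chains, were called (median log2 fold -0.29, all genes 0.11). Of 11 other laminin receptors tested, 1 was higher in SGC, the hyaluronan receptor Cd44 (log2 fold 4.82, adjusted p = 3.04e-07), with a median of -0.28. Of 25 integrin ligands, 5 were higher in SGC and 3 in Schwann cells (median 0.37). The ligands farthest apart were the junction protein gene F11r (6.48, adjusted p = 0.00262), Spp1, which encodes osteopontin (-6.45, adjusted p = 6.54e-13), and the matricellular Nov (-4.69, adjusted p = 3.21e-08). Of 29 genes of the integrin adhesion complex, which links β subunits to actin, 1 was higher in Schwann cells, Lims2 (-4.04, adjusted p = 4.05e-11), and the median was 0.18.

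Injury was compared with control within the 8 types that had at least 10 cells in all 4 libraries. No member was called at a 4-fold change and an adjusted p under 0.05 by edgeR or by DESeq2 in any of the 8. The share of all genes called was 0% in SGC, Schwann, endothelial, mesenchymal and monocyte cells and neutrophils, 0.232% in connective tissue cells and 0.072% in macrophages. Over 62 tests of 24 members, 2 had an unadjusted p under 0.05, and the largest log2 change in either direction was 1.21. The share of all genes at that p was 8.56% in macrophages, 5.15% in connective tissue cells, 1.00% in SGC and 0.185% in neutrophils. In the other types it was 1.89% to 2.05%. With 2 libraries a group, changes under the 4-fold limit could be missed, and so could larger ones where libraries of a group differed. The SE of the log2 change was 1.57 for Itgb3 in SGC and 1.51 for Itgb8 in macrophages. Full separation of the 2 injury from the 2 control libraries, given for some genes below, can arise often with no change. Its share over all genes was not counted.

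In SGC all 14 tested members had log2 changes from -0.78 (Itgb3) to 0.42 (Lamb2), none with an unadjusted p under 0.05. The glial subunit Itgb8 had 267 and 293 CPM in control and 285 and 325 CPM in injured SGC (log2 fold 0.19, SE 0.24, adjusted p = 1.000). Its partner Itgav had log2 fold 0.01, SE 0.27, adjusted p = 1.000, and Lamb1 had log2 fold 0.03, SE 0.33, adjusted p = 1.000. Itga7 stood at 117, 87.6, 56.6 and 74.0 CPM, so that both injury libraries were below both control libraries, but the difference did not pass the test (log2 fold -0.52, SE 0.26, adjusted p = 1.000). In Schwann cells the 5 tested members (Itga6, Itgb1, Itgb5, Itgb8 and Lamb1) lay between -0.38 and 0.24.

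The 2 unadjusted results were in other types. In macrophages, Itgam stood at 57.5, 36.8, 120.4 and 91.3 CPM, higher in both injury libraries than in both controls (log2 fold 0.95, SE 0.34, adjusted p = 0.462). In connective tissue cells Lamb2 stood at 129, 111, 72.2 and 75.6 CPM, lower in both injury libraries (log2 fold -0.62, SE 0.23, adjusted p = 0.915). Neither passed the adjustment. The change of SGC was also set against that of macrophages in 1 model. For 0 of 21 members did it differ (edgeR interaction, adjusted p under 0.05, and 0 by DESeq2), in a test that called 0.0101% of 9894 genes. At an unadjusted p under 0.05 lay 1 of the 21 members and 334 of the 9894 genes.

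Over the partner lists, edgeR called 0 genes after injury in any of the 8 types or in neurons, and DESeq2 called 0 in each list. At an unadjusted p under 0.05 were 1 of 43 gene and type tests of basement membrane partners and 3 of 50 of other laminin receptors. So were 9 of 95 of integrin ligands and 7 of 191 of the adhesion complex. Over all genes that share ran from 0.185% in neutrophils to 8.56% in macrophages, with 1.00% in SGC and 6.06% in neurons. The lists were not set against it type by type. In SGC the median log2 change was 0.05 for basement membrane partners, -0.01 for other laminin receptors, 0.03 for integrin ligands and 0.13 for the adhesion complex, against 0.01 over all genes.

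Neurons were examined without the upper limits on UMIs and genes, since most neuron barcodes exceed them, which gave 22, 147, 20 and 60 cells. The injury genes Atf3, a transcription factor, and Sprr1a, a growth-associated protein gene, check the labels. In neurons Sprr1a stood at 0, 0.299, 3264 and 481 CPM and Atf3 at 79.7, 77.9, 1146 and 244 CPM, both higher in both injury libraries. Atf3 was confined neither to neurons nor to injury. It stood at 1761, 405, 896 and 271 CPM in macrophages and 249, 15.8, 146 and 21.5 CPM in SGC, highest in control 1 in both. The source of the Atf3 UMIs in neurons was not tested. A UMI of Atf3 was present in 81.8%, 42.2%, 90.0% and 46.7% of neurons. At 1000 UMIs per cell these shares were 12.3%, 7.49%, 47.5% and 12.6%, so by share Atf3 did not set injury 2 clearly apart from control 1. Itga7 stood at 19.4, 12.8, 213 and 88.5 CPM, and both injury libraries were above both controls. Its change had log2 fold 3.40, SE 0.56, adjusted p = 0.494, so it missed the adjusted threshold in a comparison where 0% of 9504 genes passed. An unadjusted p under 0.05 was reached by 2 of 9 tested members and by 6.06% of all genes. DESeq2 called 1 member, Itga7. Itga7 was also called with the replicate number as a block, with no filter on low counts and without injury 2, and over the alternatives its adjusted p ran from 8.02e-20 to 0.777. Its log2 fold ran from 2.60 to 3.96. Itgb1, its partner, stood at 56.2, 76.8, 120.5 and 94.0 CPM (log2 fold 0.79, SE 0.28, adjusted p = 0.733) and did not pass the test. Both its injury libraries were above both controls, an order that 2 libraries a group can give with no change.

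A UMI of Itga7 was present in 45.5%, 22.4%, 70.0% and 45.0% of neurons, at a median of 34636, 19202, 30921 and 28418 UMIs a cell. At 1000 UMIs per cell the share was 1.77%, 1.22%, 15.9% and 5.31%. In macrophages, which should lack the gene, it was 0.0598%, 0.588%, 0.0237% and 0.110% at 1000 UMIs, from a median of 2994, 3214, 4738 and 4930.0. Within the injury libraries the UMIs of Itga7 lay mostly in neurons that also held a UMI of Atf3 or Sprr1a, a split chosen after the levels were seen and given with no test. In injury 1, 18 such neurons had 172 Itga7 UMIs (227 CPM), and the 2 others had 1 (18.0 CPM). In injury 2, 29 had 175 (158 CPM), and 31 had 16 (15.3 CPM). In the control libraries, where Atf3 was also found, 18 of 22 and 62 of 147 neurons had such a UMI. These held 20.4 and 12.1 CPM.

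Other types also express Itga7, and neuron barcodes held UMIs of their markers. The 10 SGC markers, some of which, such as Scg3, neurons express too, summed to 706, 795, 332 and 553 CPM in neurons, and Fabp7 among them stood at 8.17, 353, 11.1 and 195 CPM. The 8 pericyte markers summed to 62.3, 75.3, 14.8 and 32.4 CPM, and the 10 Schwann cell and 10 smooth muscle markers to at most 24.5 and 13.5 CPM. The summed SGC and pericyte markers were lower in both injury libraries than in both controls. The 8 markers of nonmyelinating glia summed to 525, 601, 625 and 637 CPM, and all 8 had a UMI in the neurons of each library. Whether these UMIs came from glia or from the neurons themselves was not tested. The part of RNA from the other types in the Itga7 level of neurons was not tested either. In the same cell set Itga7 in SGC was 119.8, 87.6, 56.6 and 80.6 CPM, lower in both injury libraries than in both controls. The other 7 members tested in neurons had log2 changes from -0.92 to 1.11. Among them Itga3, the other laminin-binding α subunit seen in neurons, stood at 12.3, 17.0, 9.84 and 17.6 CPM and Itga6 at 14.3, 8.36, 3.69 and 8.34 CPM.

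**Figure D5:**
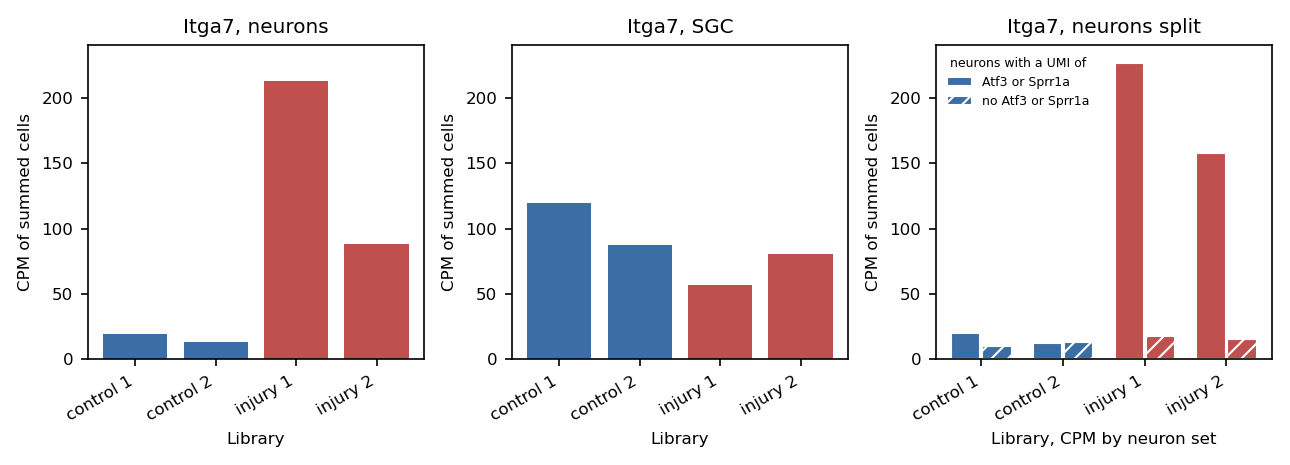
Level of Itga7 in CPM of the summed cells of each library, in neurons (left), in SGC (middle) and in neurons with (plain bars) and without (hatched bars) a UMI of Atf3 or Sprr1a (right), with no upper limit on UMIs or genes. Neurons reach 213 and 88.5 CPM after injury against 19.4 and 12.8 CPM in control, and after injury the level is 227 and 158 CPM in neurons with such a UMI.

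Annotation places Itga7 on chromosome 10 (mm10, 128933818 to 128958282, plus strand), Itgb8 on chromosome 12 (119158022 to 119238802, minus strand), Itgb3 on chromosome 11 (104608000 to 104670476, plus strand) and Itga6 on chromosome 2 (71745616 to 71858416, plus strand). No member shares an exon with another listed gene on its own strand. For 8 members an exon overlaps one of a listed gene on the opposite strand, among them Mettl7b for Itga7, Cerkl for Itga4 and B230344G16Rik for Itgb4, and whether counting used the strand is not given in the sources used here.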

How the data were processed

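Per the labels, whole ganglia were dissociated, living cells sorted and 10x Genomics 3′ libraries made. The authors made the deposited files with Cell Ranger on mm10, and these hold raw UMI counts per gene and barcode, 1 matrix per library, with 33456 genes. Cells were kept at the limits of the study (600 to 15000 UMIs, 500 to 4000 genes, under 10% mitochondrial UMIs), with the upper limits lifted for neurons alone. No doublet caller was run, and the required lead of 2 markers leaves barcodes unassigned only where marker numbers of different types are close. Counts were summed per library and type (at least 10 cells), filtered with filterByExpr, scaled by TMM and tested with edgeR 4.0.16's robust quasi-likelihood test with Benjamini-Hochberg adjustment over all genes, and DESeq2 1.42.0 as an alternative (R 4.3.3). Fold changes are log2. A test on simulated data with 8-fold changes recovered 100% of changed genes for SGC against the other types (6898 genes tested) and 97% for SGC against Schwann cells (6898 genes). For injury it recovered 96.6% in SGC (9068 genes) and 93.3% in macrophages (6965 genes). These rates belong to the simulated spread and may be lower in the real libraries. There the main fit called 0 of 9089 genes after injury in SGC and did not call Itga7 in neurons at log2 fold 3.40. Each member named was described by the fixed rule that every family member is accounted for, and of each partner list at most 3 called genes are named. Members and lists were chosen with earlier results of these data known. Intervals and floors cover counting error only. Barcodes of the 4 libraries hold a median of 2756 to 4934.5 UMIs, so genes with few UMIs in small types were imprecise. Gene positions are from GENCODE M21 on GRCm38, the same build as mm10. The values of 1 member are not reported here.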

Additional observations from a re-analysis of the deposited data

How the results depend on the processing

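Each result was recomputed with DESeq2, RLE scaling, no filter on low counts, looser and stricter gates, no upper cell limits, no library block, and without each library. No member called by type or between SGC and Schwann cells reversed its direction where an alternative gave a value. For injury only counts of called members were compared, and in neurons also the log2 folds of Itga7 and Itgb1, which stayed positive. The direction of other injury changes was not checked. Members called in at least 1 type rose from 21 to 32 with no filter on low counts, with all 21 among them, and of 79 member and type pairs called, 51 held under every alternative that gave a value. Members higher in SGC than in Schwann cells fell from 2 to 1 with the looser gate and ranged from 1 to 2 with a library left out (1 without control replicate 1 and without injury replicate 1). Members higher in Schwann cells fell from 2 to 1 with the looser gate and ranged from 0 to 2 (1 without control replicate 1 and without control replicate 2, 0 without injury replicate 2). Members called in neurons after injury rose from 0 to 1, Itga7, under DESeq2, with no filter on low counts and with the replicate block, and ranged from 0 to 1 with a library left out (1 without injury replicate 2, where the lone injury library is assumed to vary like the controls). The cause of these moves was not tested.

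The deviations of libraries with the same replicate number from their group means correlated between 0.255 and 0.521 in the 8 types. There are only 2 pairs of such libraries. No label or method says that a number marks a shared batch or day. The paper does describe its replicates as batches of pooled mice and as independent experiments, without tying them to library numbers. The main injury test has no block and so takes the libraries to share only a number. Whether libraries of the same number came from a shared batch was not tested. With the replicate block the genes called after injury went from 0 to 8 in SGC, 0 to 4 in Schwann cells, 16 to 27 in connective tissue cells and 5 to 61 in macrophages, with 0 members among them in these types. For Itga7 in neurons, the adjusted p of the edgeR test was 0.494 without the block and 0.00293 with it. The injury results therefore depend on this choice. Depth limits the small types most, where calls rested on few UMIs.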
